A study of Mus musculus with 7 samples.

Results

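Dense clusters of retinoid X receptor α (RXRα) binding were examined in mouse liver. They were chosen from the RXRα peak list of the control diet, by joining peaks whose gaps were 5 kb or less and keeping the clusters that held 5 or more peaks. This gave 454 clusters of 42650 in all, and they held 2571 of the 61128 RXRα control peaks (4.21%). The number of peaks, their spacing and the summed span were therefore set by the rule and are described without a test.

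Livers came from male C57BL/6 mice aged 3 months, fed either a normal diet (control) or one that contained retinoic acid (RA). The labels give 1 day of feeding and the study's methods a longer course, so the duration is not settled. Chromatin was immunoprecipitated with antibodies against RXRα, retinoic acid receptor α (RARα) and retinoic acid receptor β (RARβ), and sequenced (ChIP-seq). Each of the 6 combinations of receptor and diet was 1 library with 1 peak list, so no comparison below has a replicate check, and no p-value is given. The whole liver was used, and how many animals entered a library is not given in the sources used here. Read totals are not in the lists, so a longer list may also be a deeper library. The intervals given with shares are Wilson 95% intervals, which cover counting error only. They treat peaks as independent although peaks of a cluster are neighbours, so for shares of peaks they may be too narrow.

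RXRα is the common partner of a large group of nuclear receptors, among them the RARs, the peroxisome proliferator-activated receptors (PPARs), the liver X receptor and the farnesoid X receptor. The pairs bind DNA at repeats of the hexamer AGGTCA, and RA is the ligand of the RARs. In liver these receptors act on genes of lipid, bile acid, glucose and retinoid metabolism, and a gene often has several binding sites around it.

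The upstream DNA of 7 genes under peaks of dense clusters is shown first, as examples that were chosen after their values were seen. Each line gives the 250 bases before the start of the gene, 5′ to 3′ on the gene's strand, from RefSeq windows of GRCm38.p6. The first 5 windows show the different combinations of lists that called a peak there. For these 5, capitals mark AGGTCA on either strand, or in Rarb the match to the repeat GTTCANNNNNNGTTCA, where N is any base. The last 2 windows show how alike the Mup copies are, and in Mup10 capitals mark the bases that differ from Mup9.
Rarb (chr14:16575477-16575726, minus strand): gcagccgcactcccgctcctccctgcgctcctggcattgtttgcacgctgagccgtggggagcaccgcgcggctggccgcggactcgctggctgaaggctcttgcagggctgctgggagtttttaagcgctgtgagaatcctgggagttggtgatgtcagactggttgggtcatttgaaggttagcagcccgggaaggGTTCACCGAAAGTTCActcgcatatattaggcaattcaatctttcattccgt
Fabp1 (chr6:71199629-71199878, plus strand): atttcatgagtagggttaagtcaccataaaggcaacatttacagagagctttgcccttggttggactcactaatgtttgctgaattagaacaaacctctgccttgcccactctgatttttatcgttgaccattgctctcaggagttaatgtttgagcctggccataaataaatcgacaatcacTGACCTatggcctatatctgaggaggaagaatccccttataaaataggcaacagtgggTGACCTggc
Acot4 (chr12:84038129-84038378, plus strand): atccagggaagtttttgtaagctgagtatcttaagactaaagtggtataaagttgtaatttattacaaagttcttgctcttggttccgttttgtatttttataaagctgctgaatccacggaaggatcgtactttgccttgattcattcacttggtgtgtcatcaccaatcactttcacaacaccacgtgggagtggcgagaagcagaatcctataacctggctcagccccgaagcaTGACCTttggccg
Pygl (chr12:70227684-70227933, minus strand): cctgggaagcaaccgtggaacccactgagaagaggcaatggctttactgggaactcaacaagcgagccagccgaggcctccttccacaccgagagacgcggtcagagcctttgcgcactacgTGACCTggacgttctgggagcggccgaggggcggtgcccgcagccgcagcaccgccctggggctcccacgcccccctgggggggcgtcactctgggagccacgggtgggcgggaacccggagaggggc
Saa1 (chr7:46742981-46743230, minus strand): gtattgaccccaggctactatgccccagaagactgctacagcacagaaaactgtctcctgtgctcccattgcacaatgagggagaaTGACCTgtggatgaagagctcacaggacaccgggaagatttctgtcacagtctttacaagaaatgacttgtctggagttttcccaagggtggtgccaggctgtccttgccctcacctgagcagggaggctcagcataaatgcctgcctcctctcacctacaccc
Mup9 (chr4:60421953-60422202, minus strand): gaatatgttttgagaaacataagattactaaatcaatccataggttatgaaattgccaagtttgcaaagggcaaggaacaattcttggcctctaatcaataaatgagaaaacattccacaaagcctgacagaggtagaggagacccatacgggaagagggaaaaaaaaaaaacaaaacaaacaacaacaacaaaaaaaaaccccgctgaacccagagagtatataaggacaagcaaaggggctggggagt
Mup10 (chr4:60582156-60582405, minus strand): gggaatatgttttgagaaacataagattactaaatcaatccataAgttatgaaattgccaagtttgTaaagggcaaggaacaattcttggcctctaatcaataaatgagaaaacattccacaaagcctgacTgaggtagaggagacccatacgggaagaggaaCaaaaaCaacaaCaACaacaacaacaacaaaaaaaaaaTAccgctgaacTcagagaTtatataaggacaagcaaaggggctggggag

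The windows of Rarb, which encodes RARβ itself, and of Pygl, the liver glycogen phosphorylase, lay under peaks of all 6 lists. The window of Fabp1, the liver fatty acid binding protein, lay under both RXRα lists and under both RAR lists with RA, and under neither RAR list with the control diet. The same combination held for the window of Acot4, a peroxisomal acyl-CoA thioesterase gene. The window of Saa1, which encodes an acute phase protein, lay under an RXRα peak of the control diet and under no peak of the other 5 lists.

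Of the 454 clusters, 276 held 5 peaks, 98 held 6, 54 held 7, 15 held 8, 7 held 9, 3 held 10 and 1 held 12. Just outside the limit were 834 clusters of 4 peaks. Their content was near that of the clusters of 5 peaks. For every 100 RXRα control peaks, clusters of 4 peaks held 47.5 RARα and 43.2 RARβ peaks under RA, and clusters of 5 peaks held 47.0 and 45.0. The gap limit likewise lay within a smooth range of gaps, with 1541 gaps in the last 500 bp below the limit and 1539 in the first 500 bp above it. A dense cluster spanned 6.08 to 34.2 kb, with a median of 14.5 kb, and peaks covered a median of 29.4% of it. Peaks within a cluster were unequal in score, the peak caller's measure based on the p-value. The highest peak alone held a median of 37.3% of the summed score of its cluster. Chromosome 4 had 50 dense clusters, which held 7.37% of its RXRα control peaks, and chromosomes X and Y had 4 and 0. Among the 50 were the 9 clusters over Mup genes and the 1 over interferon zeta genes, tandem copies described below.

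The RXRα list under RA had 2131 peaks inside the dense clusters, between 1 and 12 per cluster with a median of 5. No dense cluster was without one, whereas 82.2% of clusters of every size held one, and 244 (53.7%) still held 5 or more. RARα had 885 peaks inside under the control diet and 1191 under RA, with medians per cluster of 2 and 2.5. RARβ had 460 peaks inside under the control diet and 1171 under RA, with medians of 1 and 2. RARβ thus had fewer peaks than RARα under control and nearly as many under RA, which also held for RXRα clusters of every size, with 11905 and 21636 peaks under control and 25569 and 27314 under RA. The control diet left 145 clusters (31.9%) without a RARβ peak and 35 without a RARα peak, and RA left 15 and 12. Of clusters of every size, 25.7% held a RARβ peak and 44.4% a RARα peak under control, and 21331 of 42650 held a RARβ peak and 52.4% a RARα peak under RA. Most clusters of every size are single peaks.

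**Figure D1:**
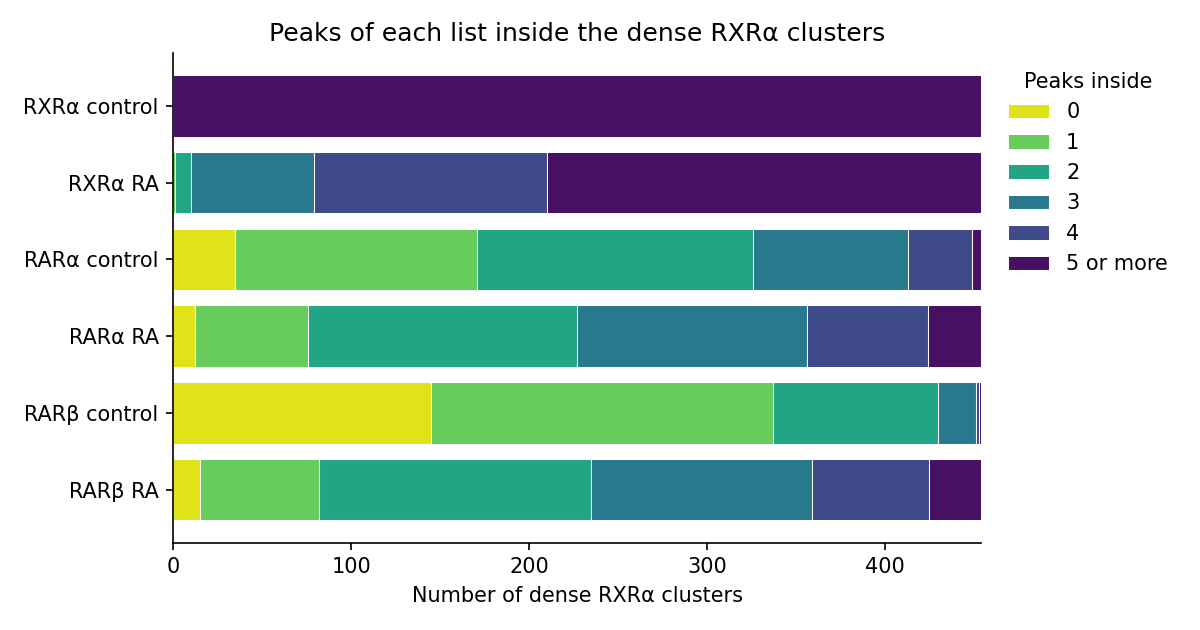
Number of dense RXRα clusters (x axis) that held 0, 1, 2, 3, 4 or 5 or more peaks (colours) of each of the 6 lists (rows). The RARβ row changes most between the diets, from 145 clusters without a peak under control to 15 under RA.

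Of the 454 dense clusters, 375 (82.6%) held more RARβ peaks under RA than under control, 62 held as many and 17 held fewer. Among RXRα clusters of every size, 30.9% held more RARβ peaks under RA and 3.39% fewer. For RARα, 238 dense clusters (52.4%) held more peaks under RA and 46 held fewer, beside 17.7% and 5.98% of clusters of every size. A cluster with more peaks has more places to gain one, so these shares can be larger in dense clusters for that reason alone and are not read as a difference between cluster classes. The ratio of peak numbers, RA to control, does not have this limit. For RARβ it was 2.55 inside dense clusters, 2.15 in RXRα clusters of every size, 2.06 at single RXRα peaks and 1.97 over the whole lists. Because depth is unknown, more binding and a deeper RA library cannot be told apart in any of these ratios. The value inside dense clusters also depended on the limits, at 7.15 with scores of at least 100 in every list (20 and 143 peaks) and 1.10 at a gap of 2 kb (10 and 11 peaks). Scores are not normalized between libraries. Over the whole lists the median RARβ score was 76.3 under control and 99.4 under RA, so a limit of 100 does not cut the lists alike. For RARα the ratios were 1.35, 1.26, 1.22 and 1.25 in the same order. A RARβ peak was present under RA in 134 of the 145 dense clusters that had none under control (92.4%, 86.9 to 95.7), and in 84.6% (80.6 to 87.8) of such clusters of 4 peaks and 29.1% of such single peaks. A RARα peak was present in 27 of 35 (77.1%, 61.0 to 87.9), beside 63.5% and 18.7%. These shares too go with the number of peaks in a cluster.

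For RXRα, 306 dense clusters held fewer peaks under RA (30.0% of clusters of every size did), 127 as many and 21 more (1.60%). The rule selects on the control list, so this direction is set in part by the choice of members. The ratio of RA to control RXRα peaks was 0.975 over the whole lists, 0.829 in the dense clusters and 0.770 at single control peaks, which were selected in the same manner. When the same rule was put on the RA list it gave 403 clusters, of which 212 overlapped a dense cluster of the control list, and the ratio was 1.15. On both RXRα lists merged it gave 768 clusters and a ratio of 0.970. The RARβ ratio was 2.51 and 2.41 in these alternative sets and the RARα ratio 1.34 and 1.32, so the RAR values hardly moved with the list that defined the clusters.

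Of the RXRα control peaks inside dense clusters, 427 (16.6%) overlapped no RXRα peak under RA, against 20.7% over the whole list. They were low peaks, with a median score of 76.4 beside 174.8 for those that overlapped one. In addition, 101 RXRα peaks under RA spanned 2 or more control peaks, and 49 control peaks spanned 2 or more peaks under RA. The covered length went from 2.04 to 1.94 Mb, a ratio of 0.951 beside 1.03 for the whole lists. For RARβ the covered length inside the clusters went from 297 to 1090 kb, a ratio of 3.66 beside 2.73 for the whole lists. For RARα it went from 897 to 978 kb, a ratio of 1.09 beside 0.978.

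Both RARs had a peak in 299 dense clusters under control, RARα alone in 120, RARβ alone in 10 and neither in 25. Under RA, both had a peak in 431 clusters, RARα alone in 11, RARβ alone in 8 and neither in 4. All 6 lists were present in 293 clusters. Only 3 clusters had no RAR peak in any list, and each held 5 RXRα peaks under control and 4 under RA. Of the clusters of 4 peaks, 51.4% had both RARs under control, 86.2% had both under RA, 49.0% held peaks of all 6 lists and 2.28% had no RAR peak, beside 65.9%, 94.9%, 64.5% and 0.661% of dense clusters. Over clusters of every size the shares were 22.0%, 40.1%, 19.4% and 34.7%, and a cluster with more peaks holds any list more often. The 3 without a RAR peak lay over Lgr4, an R-spondin receptor, over Slc25a15, the mitochondrial ornithine carrier, and over Snrk, a kinase related to AMPK, together with Ano10.

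RAR peaks inside the clusters sat almost entirely on the RXRα peaks. Sharing between lists required an overlap that covered at least 25% of both peaks. On this measure 97.5% of the RARβ peaks under RA inside dense clusters were shared with an RXRα control peak, and 92.9% of the RARα control peaks. Over the whole lists these shares were 87.3% and 61.1%. A position inside a cluster favours such an overlap, as peaks cover more of the DNA there. RARα under RA shared 67.5% (64.7 to 70.1) of the 1171 RARβ peaks under RA and RARβ under control shared 31.9% (29.3 to 34.7). Over the whole list these shares were 72.1% and 38.2%.

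Counted the other way, 82.6% (81.1 to 84.0) of the RXRα control peaks of dense clusters were shared with the RXRα list under RA, beside 78.7% of all RXRα control peaks. With RARα 33.3% (31.5 to 35.1) were shared under control and 43.1% (41.2 to 45.0) under RA, beside 36.0% and 43.7% of all. With RARβ 17.0% (15.6 to 18.5) were shared under control and 46.2% (44.2 to 48.1) under RA, beside 19.0% and 42.6%. So, over all their peaks, the dense clusters were a little below the list in RAR sharing under control and a little above it in RARβ sharing under RA. Apart from RARα under RA, the values of the whole list lie outside these intervals. The intervals count neighbouring peaks of a cluster as independent and may be too narrow, and the spread between animals is unknown. The lower control shares did not hold beyond 1 kb of a gene start. There, dense clusters and single peaks had 27.3% and 28.1% for RARα, and 12.6% and 11.3% for RARβ. All RXRα control peaks were shared with the RXRα list under RA in 150 of the 454 clusters. This number depends on how many peaks a cluster holds and was not calculated for other cluster sizes, so it is a description only.

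The RAR peaks were placed unevenly within a cluster. The RXRα peak with the highest score of its cluster had a median score of 438.9, and 77.8% of these 454 peaks were shared with RARβ under RA and 65.9% with RARα under RA. At the second peak by score, the shares were 61.7% and 52.6%. At the fifth, with a median score of 76.0, they were 26.0% and 29.5%. RARβ under RA was therefore above RARα under RA at the top peaks and not at the fifth. Under control, RARα was above RARβ at the top peak, at 53.3% and 32.8%. The same dependence on score was seen outside the clusters, and at scores of 400 or more 88.2% of dense-cluster peaks and 84.1% of single peaks were shared with RARβ under RA.

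**Figure D2:**
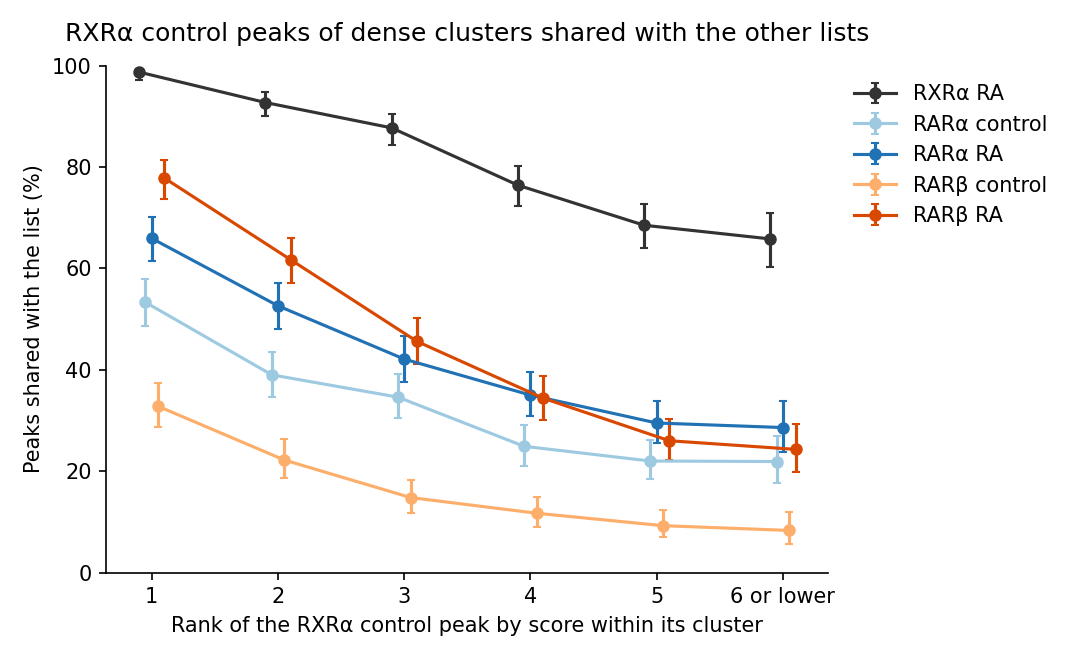
Share of RXRα control peaks of dense clusters that each other list shared (y axis, percent), by the rank of the peak's score within its cluster (x axis), with Wilson 95% intervals as bars. All 5 shares are lower at lower ranks, and RARβ under RA goes from 77.8% at the highest peak to 26.0% at the fifth.

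Among the weakest RXRα control peaks, those with scores of 50 to 100, 62.8% (59.5 to 66.0) of dense-cluster peaks and 49.6% (48.7 to 50.6) of single peaks were shared with RXRα under RA. For RARβ under RA, these shares were 22.9% (20.2 to 25.8) and 17.0% (16.3 to 17.7). Small clusters of 2 to 4 peaks lay between for RXRα, at 57.8%, and within the dense interval for RARβ, at 21.6%. A higher share than at single peaks was therefore not particular to dense clusters. Peak width had the same order over all scores, with medians of 705 bp in dense clusters, 594 bp in small clusters and 485 bp at single peaks. Its part in these overlap-based shares was not tested. At scores of 400 or more, the RXRα shares were 99.7% and 99.5%.

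Dense clusters lay near genes but not mainly at their starts. Within 10 kb of the start of a protein-coding gene were 51.3% (49.3 to 53.2) of their RXRα control peaks. This share was 41.0% (40.5 to 41.6) in small clusters and 29.3% (28.8 to 29.8) at single peaks. Within 1 kb of a start were 12.4% (11.2 to 13.8), beside 16.1% in small clusters and 15.0% of single peaks. The few peaks at starts differed from the rest in their RAR binding. Within 1 kb, 75.3% (70.3 to 79.7) were shared with RARα and 48.1% (42.7 to 53.6) with RARβ under control. Beyond 1 kb, these shares were 27.3% (25.5 to 29.2) and 12.6% (11.3 to 14.0). Peaks of small clusters beyond 1 kb had 27.2% and 11.9%, and single peaks 28.1% and 11.3%. With RA, RARβ was shared by 72.8% of dense-cluster peaks within 1 kb and 42.4% beyond. Single RXRα peaks within 1 kb of a start had higher shares under control, 86.5% with RARα and 67.3% with RARβ, whereas peaks of small clusters were within the dense intervals, at 78.4% and 52.9%. Over 10 kb from a start it was the reverse for RARβ under RA, with 45.3% (42.5 to 48.0) in dense clusters, 38.6% (37.9 to 39.4) in small clusters and 33.7% (33.1 to 34.3) at single peaks.

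**Figure D3:**
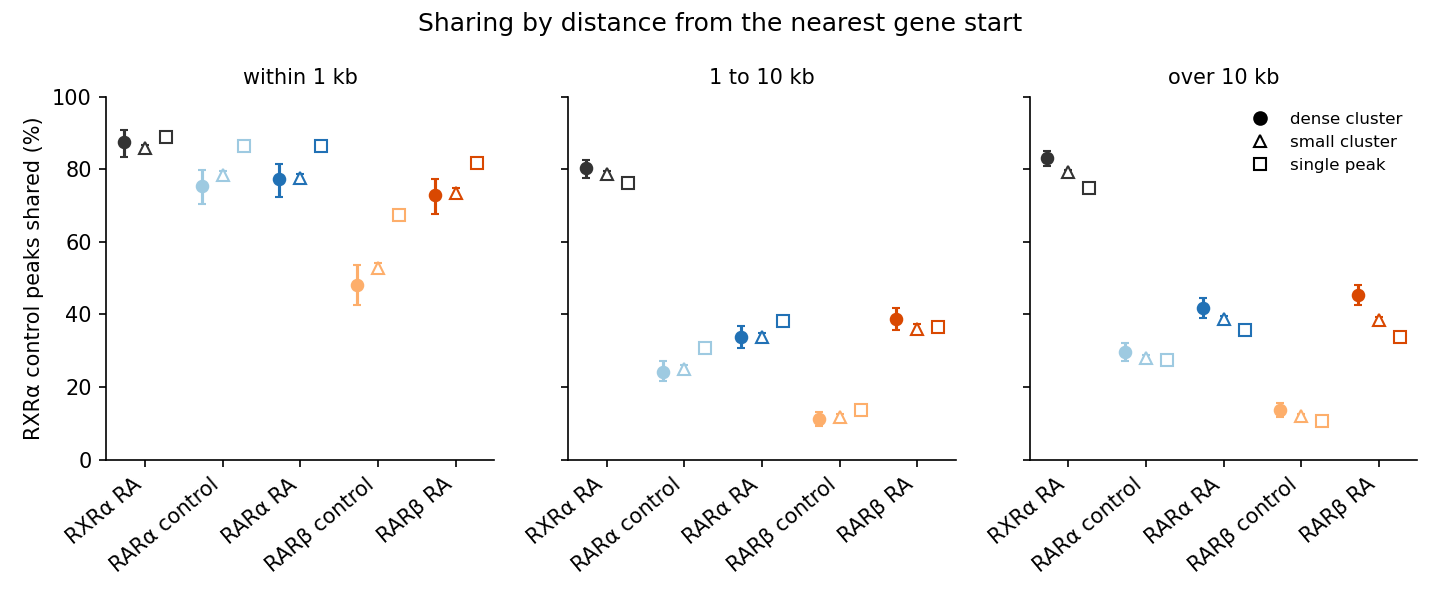
Share of RXRα control peaks that each other list shared (y axis, percent), for peaks of dense clusters (filled circles), small clusters (open triangles) and single peaks (open squares), in 3 panels by distance from the nearest gene start, with Wilson 95% intervals. Within 1 kb the dense-cluster shares for RARβ under control (48.1%) lie below the single peaks (67.3%) and near the small clusters (52.9%), and over 10 kb those for RARβ under RA (45.3%) lie above both (38.6% and 33.7%).

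Of 21263 RefSeq promoter windows of protein-coding genes, from 250 bases before to 50 after a start, 258 lay under an RXRα control peak of a dense cluster and 7905 under any RXRα control peak. These 258 windows belonged to 214 genes. They were poorer in CpG than the others. Windows with a GC content over 50% and an observed to expected CpG ratio over 0.6 made up 53.9% (47.8 to 59.9) of them and 74.8% of the windows under single peaks. Among the other, CpG-poor windows, a RARβ control peak was present at 31.1% (23.5 to 39.9) in dense clusters and at 52.8% (49.7 to 55.7) at single peaks. Among CpG-rich windows, these shares were 77.7% and 81.3%. Many CpG-poor windows belong to near-identical Mup copies. With 1 window per gene and no Mup gene, CpG-rich windows made up 62.3% (55.3 to 68.9) in dense clusters, 71.2% in small clusters and 75.7% at single peaks. On the same windows, the RARβ control share at CpG-poor ones was 31.9% (22.3 to 43.4), 47.6% (44.2 to 51.0) and 55.5% (52.2 to 58.8).

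The hexamer AGGTCA, searched on both strands, was in 62 of the 258 windows (24.0%, 19.2 to 29.6), in 14.1% of the windows under any RXRα control peak and in 14.7% of all windows. Some genes have several overlapping windows. With 1 window per gene the shares were 22.0% (16.8 to 28.2), 13.8% and 14.5%. The hexamer also went with base composition, at 9.25% of all CpG-rich and 19.2% of all CpG-poor windows. Among CpG-rich windows it was in 15.1% (10.1 to 22.0) in dense clusters and 10.7% under any RXRα control peak. Among CpG-poor windows these were 34.5% (26.5 to 43.4) and 22.8%. These last shares count overlapping Mup-ps12 and Mup-ps16 windows, and none without Mup genes was calculated. Direct repeats GGTCA with 1 to 6 free bases between them, up to GGTCANNNNNNGGTCA, were in 0 of the 258 windows, and each was in fewer than 1% of all windows. The variant GTTCANNNNNNGTTCA, also on both strands, was in 1 of the 258 windows, in 4 of the 7905 and in 14 of all 21263. The 1 window was that of Rarb, printed in capitals above. A match is a description of letters, and most peaks lay outside these windows, whose DNA was not searched.

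The dense clusters overlapped 475 protein-coding genes, 2.17% of 21887. A single gene was overlapped in 317 clusters, 2 genes in 51 and 3 or more in 19, and 67 clusters lay outside genes, with the nearest gene 154 to 272293 bp away. A gene start was inside 248 of the clusters, and 412 of 21536 genes with a known start (1.91%) had their start within 10 kb of one. The overlapped genes were long, with a median span of 28.2 kb beside 17.2 kb for all, and a long gene has more room for a cluster. The gene Nr5a2, which encodes LRH-1, and Rora, which encodes RORα, were among 14 genes with 2 dense clusters, as was Scp2, the sterol carrier protein gene.

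**Figure D4:**
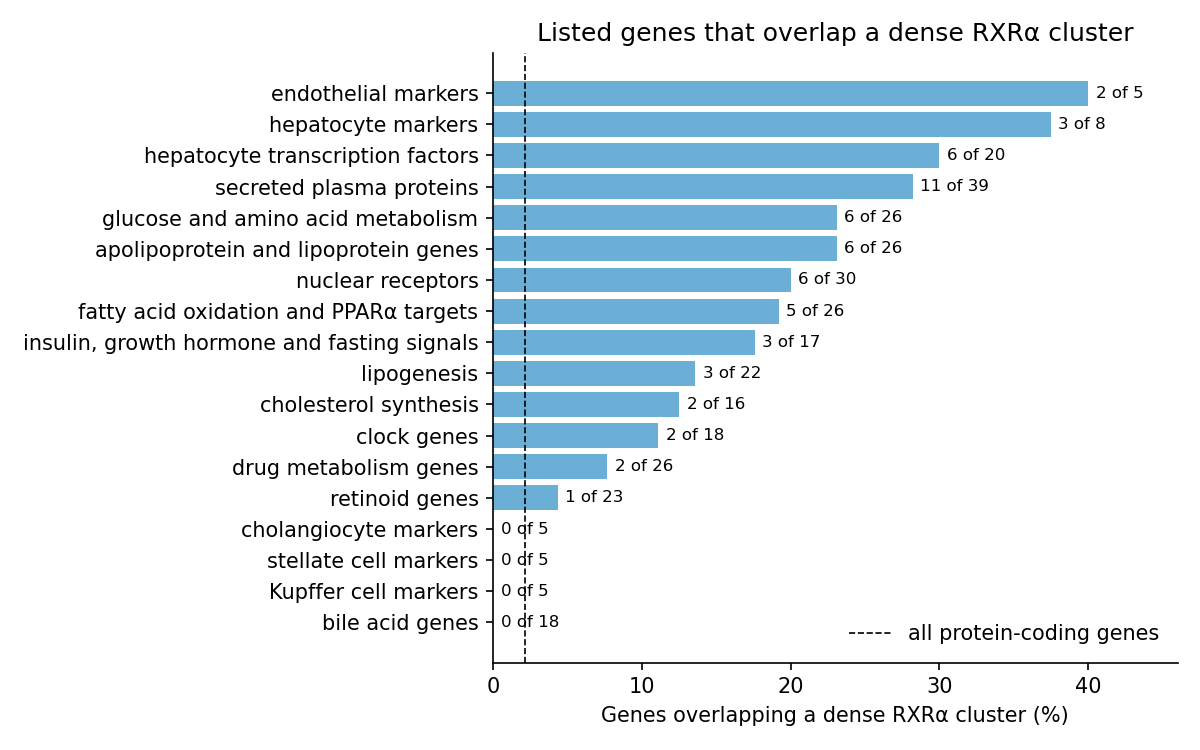
Share of the genes of 18 lists that overlapped a dense RXRα cluster (x axis, percent; bars), with the number of genes beside each bar and all 21887 protein-coding genes as a dashed line at 2.17%. Secreted plasma proteins reach 11 of 39 genes and bile acid genes 0 of 18.

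Single clusters are described next, and where a receptor is given a pair of numbers, the control diet stands first and RA second. An RXRα peak under RA can span 2 or more control peaks, so a lower RXRα number is not a count of sites lost. Among 30 nuclear receptor genes, 6 overlapped a dense cluster. Rarb, Ppara and Hnf4a were among them. The Rarb cluster (chr14:16561540-16575973) held 5 RXRα control peaks and 4 under RA, 2 RARα peaks under each diet, and 1 RARβ peak under control and 2 under RA. Its strongest RXRα peak, with a score of 631.3, was centred 68 bp from the start and shared with all 5 other lists. The second, with a score of 446.4 and 13735 bp inside the gene, was shared with RARβ only under RA. The 3 remaining RXRα peaks were shared with no RAR list. The cluster over Ppara, the fatty acid sensor, held 5 RXRα control peaks and 2 under RA, 2 RARα control peaks and 1 under RA, and no RARβ peak. It was one of the 15 clusters without RARβ under RA. The Hnf4a cluster, at the gene of a central hepatocyte factor, had 6 RXRα peaks under control and 3 under RA, 2 and 4 of RARα, and 1 and 2 of RARβ. Here the 3 highest RXRα peaks were shared under RA with all 3 receptors, and of the 3 lowest only 1 was shared with any list.

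Of 20 hepatocyte transcription factor genes, 6 overlapped a cluster, namely Hnf4a, Nr5a2, Foxa3, Cebpa, Onecut2 and Tcf7l2. Cebpa, which encodes C/EBPα, was in one of the few clusters with more RXRα peaks under RA, 6 after 5, with 2 and 3 RARα and 2 and 3 RARβ peaks. At Tcf7l2, the Wnt pathway factor, both RARs were absent under control, and 2 RARα and 3 RARβ peaks were present under RA beside 6 RXRα peaks with each diet. The 2 clusters of Nr5a2 had 6 and 5 RXRα peaks with either diet, and 3 and 4 RARα peaks that were as many under RA.

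Lipid genes made up several of the lists. Of 26 fatty acid oxidation genes and PPARα targets, 5 overlapped a cluster (among them Ehhadh and Fabp1), and of 26 apolipoprotein and lipoprotein genes 6 did (Apoa2, Apoc1, Apoc2, Apoc4, Scarb1 and Angptl4). Of 22 lipogenesis genes 3 did (Elovl6, Gpam and Fads2), and of 16 cholesterol synthesis genes 2 did (Fdps and Sc5d). The Fabp1 cluster held 6 RXRα peaks under control and 4 under RA, and both RARs went from 0 to 3 peaks. The cluster over Elovl6, a fatty acid elongase, had 5 RXRα peaks with each diet, no RARα peak with either, and 0 and 3 RARβ peaks. Angptl4, the inhibitor of lipoprotein lipase, had 5 and 3 RXRα peaks, 2 RARα peaks with each diet, and 0 and 4 RARβ peaks. All its RXRα control peaks except the lowest by score were shared with RXRα under RA. The cluster over Apoa2, an apolipoprotein of high density lipoprotein, held 6 RXRα control peaks and 2 peaks under RA with their centre inside. Another RXRα peak under RA, 4817 bp wide and centred outside the cluster, overlapped 2 of the control peaks and covered the Apoa2 start. The peak counts of RARα were 2 and 2, and those of RARβ 0 and 2.

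Of 39 genes of secreted plasma proteins, 11 overlapped a dense cluster. They were Trf, Hp, Serpina1a, Serpina6, Saa1, Saa4, Cp, Hc, Itih1, Itih2 and Itih3. The cluster over Trf, the transferrin gene, held 7 RXRα peaks with each diet, 4 and 5 of RARα and 2 and 4 of RARβ. Serpina1a, an α1-antitrypsin gene, had 5 RXRα peaks with each diet, no RARα peak with either, and 0 and 2 RARβ peaks. Saa1 and Saa4 shared 1 cluster, with 5 and 4 RXRα, 1 and 3 RARα and 0 and 3 RARβ peaks. Although that cluster had RAR peaks under RA, none of them covered the Saa1 window shown above.

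Of 26 genes of glucose and amino acid metabolism, 6 overlapped a cluster (Pck1, Pygl, Tat, Hpd, Cps1 and Sds). Hpd, of tyrosine breakdown, had 8 RXRα peaks with each diet, 3 and 2 of RARα, and 2 and 6 of RARβ. Pck1, of gluconeogenesis, had 7 and 5 RXRα, 2 and 1 RARα, and 2 and 2 RARβ peaks. Among 17 genes of insulin, growth hormone and fasting signals, Insr, Igf1 and Stat5b did. Among 18 clock genes 2 did, among them Cry2. Of 26 drug metabolism genes, Cyp2a5 and Cyp2d10 did. Of 23 genes of retinoid transport and metabolism, 1 did, namely Dhrs3, a retinal reductase gene, in a cluster shared with Vps13d that had 6 RXRα peaks with each diet, 2 and 3 of RARα and 2 and 4 of RARβ. The retinol dehydrogenase genes Rdh1 and Rdh7, which were not in that list and were picked out after their values were seen, also overlapped dense clusters. The Rdh7 cluster had 6 and 5 RXRα, 4 and 4 RARα, and 3 and 4 RARβ peaks. None of the 18 genes of the bile acid list overlapped a dense cluster, although 17 had an RXRα control peak in their span. The share was 2.17% over all genes. Over the other lists of metabolism genes it was between 4.35% (retinoid) and 23.1% (glucose and amino acid metabolism). The list is small, and why none overlapped was not tested. Scp2 and Slc27a2, which also take part in bile acid synthesis and were not in the list, did overlap.

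Markers of cell types were counted in the same way, as bound or not. Hepatocyte markers overlapped a cluster in 3 of 8 cases, endothelial markers in 2 of 5 (Stab2 and Lyve1), and Kupffer cell, stellate cell and cholangiocyte markers in 0 of 5 each. With 2.17% of all genes overlapped, a list of 5 can easily have none. Any RXRα control peak lay in the span of 7 of 8 hepatocyte and 5 of 5 endothelial markers. Among Kupffer cell, stellate cell and cholangiocyte markers, 1, 2 and 2 of 5 had one. Median gene spans were 13.5 kb for hepatocyte, 46.2 kb for endothelial, 25.6 kb for Kupffer cell, 38.7 kb for stellate cell and 5.94 kb for cholangiocyte markers. The same share over all protein-coding genes was not calculated, so these counts are not read as a difference between cell types. Binding does not measure expression, and the part of each cell type in the whole-liver signal was not tested.

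The clusters with the most RXRα control peaks were next described. Insr, the insulin receptor gene, had a cluster of 10 RXRα peaks with each diet (chr8:3211284-3243747). It held 3 RARα peaks with each diet, and 1 RARβ peak under control and 5 under RA. All 10 RXRα control peaks were shared with RXRα under RA. Cry2, a clock repressor gene, had 10 and 8 RXRα peaks, 5 RARα peaks with each diet and 3 and 5 RARβ peaks. The widest cluster, of 34172 bp, lay 9744 bp from Rassf3 and had 10 and 9 RXRα, 4 and 6 RARα, and 3 and 6 RARβ peaks. The cluster over Efna1, which encodes an ephrin ligand, held 9 RXRα peaks with each diet, 7 and 8 RARα peaks, and 1 and 7 RARβ peaks. The transcription factor genes Zbtb16 and Nfib had 9 and 8 RXRα peaks each. Of the 11 clusters with 9 or more RXRα control peaks, 10 held more RARβ peaks under RA, near the 82.6% of all dense clusters that did. The exception was the cluster over the glutathione transferase genes Gstm1 and Gstm4, with 9 and 7 RXRα, 1 and 3 RARα, and 2 and 1 RARβ peaks.

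Receptor numbers went apart in other named clusters. Scp2, the gene of a sterol and fatty acid carrier, had a cluster with 6 RXRα peaks with each diet, 0 and 2 RARα and 0 and 5 RARβ peaks. Itpr1, the gene of an intracellular calcium channel, had 7 and 6 RXRα, 1 and 5 RARα, and 0 and 5 RARβ peaks. In Prkag2, the gene of an AMPK subunit, RARα went from 0 to 5 peaks and RARβ from 0 to 1, while RXRα went from 8 to 5. All its RXRα control peaks except one with a score of 74.1 were nevertheless shared with RXRα under RA, so most of these sites were not lost. A cluster with fewer RARβ peaks under RA was that of Ces1c, a carboxylesterase gene, with 2 and 0. Over Gldc, of glycine breakdown, RXRα went from 5 to 7 peaks, RARα from 0 to 2 and RARβ from 0 to 4. The highest median score, 1135.4, was in the cluster over Galnt2, a glycosyltransferase gene. Its 3 strong RXRα peaks had scores of 1135.4, 1366 and 1450, and each was shared with both RARs under RA.

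Some dense clusters followed tandem gene copies. The cluster with the most peaks, 12, lay over the interferon zeta gene Ifnz and its neighbouring copies on chromosome 4 (chr4:88773461-88806281). It held 12 peaks of every list except RARβ under control, which had 11. Its RXRα control peaks followed each other at steps of 2622 to 3035 bp, each 19 to 600 bp from the start of 1 of the 12 genes, and their scores were between 154.2 and 290.2. The promoter windows of these 12 genes were 53.1% to 100% identical over 140 to 300 aligned bases, with no pair between 62.6% and 99.3%. A peak lay 19 bp from the start of Gm13289 and another 600 bp from that of Ifnz, a pair with 62.3%. The windows may thus cover unlike parts of a copy, which was not tested, and the low values do not measure how alike the copies are. This cluster was the only dense one with 5 or more RARβ control peaks.

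The Mup genes, which encode the major urinary proteins secreted by the liver, lay under 9 dense clusters on chromosome 4. These held 59 RXRα peaks under control and 55 under RA, 26 and 28 RARα peaks, and 16 and 39 RARβ peaks. At 8 of the genes the RXRα control peaks stood at like distances from the start. All 8 had a peak centred 304 to 593 bp upstream of the start, one 2012 to 2250 bp upstream and one 4067 to 4678 bp downstream. A peak 9622 to 9756 bp upstream was at 6 of them. Mup15 and Mup17 had their nearest counterpart at 6764 and 6598 bp, and their far peaks at 11622 to 16908 bp. The peak about 2 kb upstream was low in every copy, with scores of 56.2 to 177.6, and the peak at the start had scores of 366.4 to 608.8. The ninth cluster, over Mup20, lay 26273 to 43369 bp downstream of its start.

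**Figure D5:**
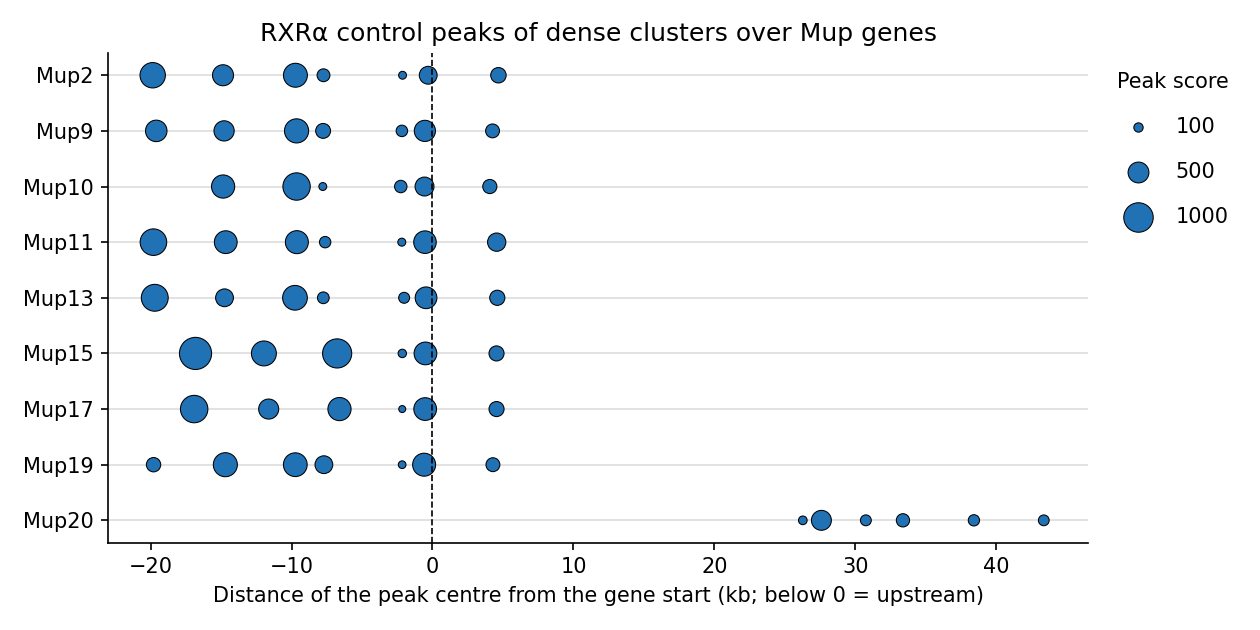
Distance of each RXRα control peak from the start of its Mup gene (x axis, kb, below 0 upstream) for the 9 dense clusters over Mup genes (rows), with the area of a circle in proportion to the peak score. Peaks line up between 8 copies, as at 304 to 593 bp upstream of the start.

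The windows of 7 Mup genes were 94.6% to 100% identical, with a median of 99.0%. Across the 247 bases that align with the upstream bases of Mup9, Mup10 differed at 12. Short reads from copies this alike cannot always be placed on 1 of them, and how such reads were treated is not given in the sources used here, so the values of single Mup and interferon copies are uncertain. Without the Mup and interferon clusters, 444 dense clusters were left, with 1120 RARβ peaks under RA and 433 under control, a ratio of 2.59.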

How the data were processed

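The authors prepared chromatin from mouse liver, immunoprecipitated RXRα, RARα and RARβ under each diet, aligned the reads to mm10 with Bowtie and called peaks with MACS. The submitters' processing notes also name CASAVA 1.4. The deposited files are 6 peak lists, 1 per library, and the deposited score is MACS's own, −log10 of a peak's p-value times a constant. It is at least 50 in every list and is not normalized between libraries. It was used to describe and rank peaks within a list. The alternative with scores of at least 100 also put the same limit on every list. An input library was not used here. Read depth is unknown, so the intervals cover the counting of peaks only.

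Clusters were formed in Python 3.11.15 with pandas 2.3.3 at gaps of 5 kb or less, and 5 or more peaks made a dense cluster. A peak of another list was inside when its midpoint was inside, and shared when the overlap was at least 25% of the width of each peak. Genes and promoter windows were those of RefSeq on GRCm38.p6, the build of the peak lists, and strands not given there came from GENCODE M1 by symbol. Wilson 95% intervals came from SciPy 1.17.1 and alignments of gene copies from Biopython 1.88. With 1 library per group no test was run. The counting steps were tested on simulated peaks.

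Named clusters were those with the most RXRα control peaks, the widest, those with the largest differences between diets per receptor, those with the highest median score, those without a RAR peak, and those over genes of 6 lists (nuclear receptors, hepatocyte transcription factors, apolipoproteins, retinoid, bile acid and clock genes). Further genes of the other 12 lists, among them the lipid, plasma protein and metabolism lists, and the Mup clusters were chosen after their values were seen, as were the promoter windows shown and the promoter motifs. The members and gene lists were chosen with earlier results of these data known. Some genes of these lists are not reported here. Alternatives changed the gap, the peak number, the score limit, the list length, the defining list, and the rules for inside and shared.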

Additional observations from a re-analysis of the deposited data

How the results depend on the processing

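The number of dense clusters and of peaks inside them depended on the clustering rule. It was 454 clusters as reported, 9 at a gap of 2 kb, 2249 at 10 kb, 1288 with 4 or more peaks, 178 with 6 or more, 87 with scores of at least 100 in every list, 1 with every list shortened to the 14968 peaks of the shortest, and 768 from both RXRα lists merged. In that order of alternatives, the RXRα peaks under RA inside numbered 36, 13300, 4834, 993, 392, 3 and 3840. The RARα control peaks numbered 10, 6292, 2075, 414, 97, 1 and 1511, and the RARα peaks under RA 18, 8207, 2775, 542, 157, 1 and 1997. The RARβ control peaks numbered 10, 3187, 1058, 218, 20, 1 and 783, and the RARβ peaks under RA 11, 7309, 2611, 550, 143, 3 and 1888. The ratio of RARβ peaks, RA to control, was 1.10 at the 2 kb gap, with only 9 clusters, and 7.15 at scores of at least 100; under the other alternatives it was between 2.24 and 3.00. The share of RXRα control peaks inside that the RXRα list under RA shared, 82.6% as reported, was 96.1% in clusters of the RA list, 73.8% at an overlap of 50% of each width, 80.1% at scores of at least 100 and 60.0% in the lists of equal length, where only 5 peaks were left. Counts with whole peaks inside, with any overlap, with a gene start within 10 kb (412 genes) and with the RA list defining the clusters stayed within 1.5 times the reported ones. No dense cluster held a capped score in every list, so leaving such clusters out removed none. Clusters of the merged lists, and the set without Mup and interferon zeta genes, were chosen after seeing the data.

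No paired analysis was possible because each group is 1 library. Depth is unknown, so list length and depth cannot be told apart, and a peak missing from a list was not called at this depth rather than absent.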
